A study of Mus musculus with 7 samples.

Results

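The 9 genes described here encode SLC22 organic ion transporters and were followed in kidneys of LBR-null and WT mice: Slc22a2, Slc22a4, Slc22a5, Slc22a6, Slc22a7, Slc22a8, Slc22a12, Slc22a22 and Slc22a28. These 9 genes, of 24328 symbols in the deposited files, were picked by symbol with their genotype difference already known, so that difference is described here and carries no test. LBR-null mice were homozygous for the loss-of-function allele ic-J of Lbr (genotype Lbric-J/ic-J), and the control was 1 WT littermate (Lbr+/+). All were on the C57BL/6J background and 4 weeks old. LBR, the lamin B receptor, sits in the inner membrane of the nucleus, where it binds lamins and chromatin, and it also has sterol reductase activity. The ic-J mutation is in the germ line and so is not limited to the kidney. Polyadenylated RNA of the right kidney was sequenced from LBR-null mice 4001 (2 libraries), 4002 (1 library) and 4007 (2 libraries) and from WT mouse 4009 (2 libraries). Values are normalized counts, reads per gene divided by the size factor of the library, averaged within a mouse. Errors are the SD over the 3 LBR-null mice. With 1 WT mouse, the spread between WT animals is not known.

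SLC22 proteins move charged small molecules across the plasma membrane. In the proximal tubule, the organic anion transporters and organic cation transporters of the basolateral membrane take drugs, toxins and metabolites from blood, which then leave through apical exporters into urine. Other members work in the opposite sense: URAT1 at the apical membrane recovers urate, and the OCTN proteins recover carnitine and related zwitterions. Expression of several renal SLC22 genes of the mouse is known to depend on age after birth and on sex.

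The 7 libraries held 20694016 to 26333284 reads on genes, so 1 read was worth 0.787 to 1.15 normalized counts. Each of the 9 genes exceeded the filter used for tests, a mean of 5 normalized counts over the 4 mice. The labels give no sex. The WT mouse and LBR-null mouse 4002 had Xist, the RNA that silences an X chromosome in females, at 35.5 and 65.3 normalized counts, whereas mice 4001 and 4007 had it at 5785 and 9940. Ddx3y, a gene of the Y chromosome, was at 1284 and 1516 in the former pair and at 141 and 44.3 in the latter. The other Y-linked genes measured were at 10.6% (Eif2s3y), 9.75% (Uty) and 5.31% (Kdm5d) of the WT level in mouse 4001 and at 3.66% or less in mouse 4007, so both libraries of mouse 4001 held high Xist together with Y-linked reads. Their source was not tested. Without mouse 4001 the median log2 difference of the 9 genes was −4.08, the same as with it, and the 7 genes lower in LBR-null mice ran from −5.84 to −2.10. Mouse 4002 is therefore the LBR-null mouse that resembles the WT mouse in these markers, and its values are given apart for the 9 genes.

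The promoters of 7 genes are shown with CG pairs, the sites of DNA methylation, in capitals, to set out the sequence at their starts. CpG islands, by which the study classes genes, were defined there by sequence together with an affinity assay. The bases shown here do not give that class. Each line is the 120 bases just upstream of the start, 5′ to 3′ on the strand of the gene, from the RefSeq promoter table (build GRCm38.p6). Slc22a4 and Slc22a5 were not 2-fold lower. Their positions are chr11:54028105-54028224 and chr11:53891704-53891823, both on the minus strand.
Slc22a4: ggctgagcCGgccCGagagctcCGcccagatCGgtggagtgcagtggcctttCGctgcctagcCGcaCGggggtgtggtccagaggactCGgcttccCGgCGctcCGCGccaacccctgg
Slc22a5: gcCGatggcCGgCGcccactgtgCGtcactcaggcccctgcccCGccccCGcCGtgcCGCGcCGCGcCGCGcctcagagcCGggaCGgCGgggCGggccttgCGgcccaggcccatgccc
Slc22a2 and 4 genes of chromosome 19 were lower. The positions are chr17:12584069-12584188 (plus strand) for Slc22a2, chr19:8617876-8617995 (plus strand) for Slc22a6, chr19:8593062-8593181 (plus strand) for Slc22a8, chr19:8131983-8132102 (minus strand) for Slc22a28 and chr19:6543071-6543190 (minus strand) for Slc22a12.
Slc22a2: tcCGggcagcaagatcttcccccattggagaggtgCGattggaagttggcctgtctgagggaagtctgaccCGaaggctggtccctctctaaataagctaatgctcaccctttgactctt
Slc22a6: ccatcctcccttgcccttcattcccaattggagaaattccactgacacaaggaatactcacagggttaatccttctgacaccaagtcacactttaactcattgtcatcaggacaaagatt
Slc22a8: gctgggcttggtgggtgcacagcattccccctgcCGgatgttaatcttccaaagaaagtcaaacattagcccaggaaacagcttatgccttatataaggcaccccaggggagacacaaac
Slc22a28: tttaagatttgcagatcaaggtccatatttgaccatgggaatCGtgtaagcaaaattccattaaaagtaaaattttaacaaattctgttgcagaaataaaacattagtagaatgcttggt
Slc22a12: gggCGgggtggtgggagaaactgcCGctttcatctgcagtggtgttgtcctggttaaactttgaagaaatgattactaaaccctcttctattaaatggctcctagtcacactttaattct
These 120 bases hold 12 CG pairs in Slc22a4, 18 in Slc22a5 and 3 in Slc22a2. Over the windows of the 5 other genes with one the number was 0 to 2, and the median over all 32851 windows was 3. RefSeq windows of 300 bases around the start were given for 8 of the 9 genes, and none for Slc22a7.

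The 6 anion transporter genes among the 9 and the cation transporter gene Slc22a2 were lower in LBR-null kidneys, and of the carnitine transporter genes Slc22a5 was near the WT level and Slc22a4 near it in 2 of 3 mice. In Slc22a2, Slc22a6, Slc22a7, Slc22a8, Slc22a12, Slc22a22 and Slc22a28 the mean was at least 2-fold lower and each of the 5 LBR-null libraries lay below both WT libraries. This held for 7 of 9 genes, against 6.81% of the 17283 genes tested. The genes were chosen on this contrast, so nothing is read from the share. Over the 9 genes the median log2 difference was −4.08, on the log2(normalized counts + 1) scale, against 0.01 over all genes tested. Together the 9 genes took 0.0324% to 0.0554% of the reads of an LBR-null library and 0.207% and 0.210% of those of the WT libraries. In a whole-kidney sample, fewer cells that express a gene and less RNA per cell cannot be told apart.

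**Figure D1:**
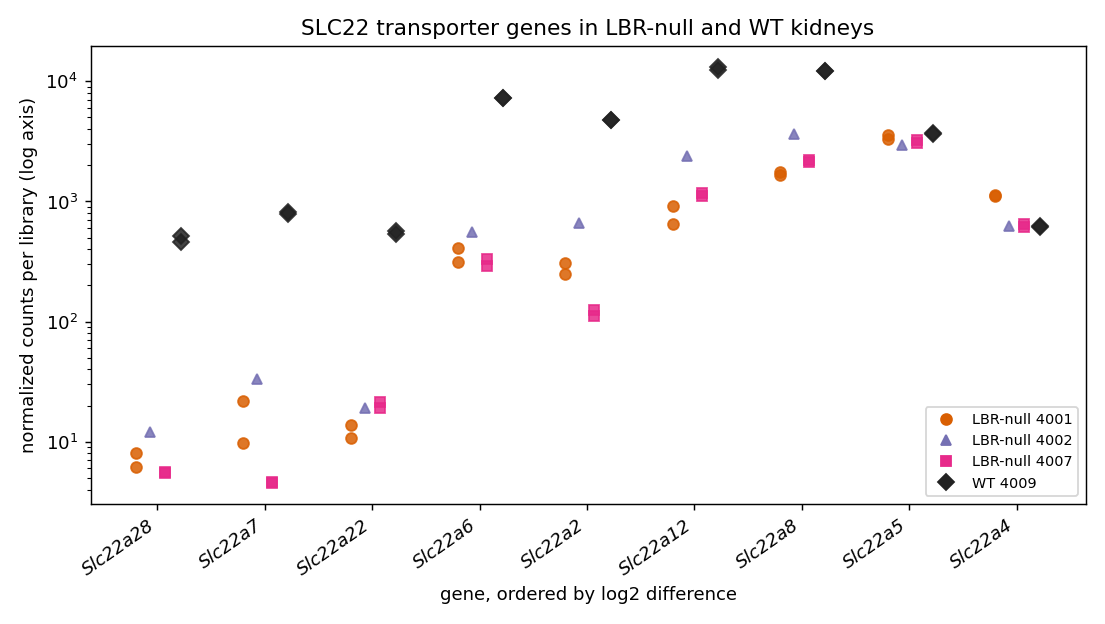
Normalized counts of the 9 genes (x axis, ordered by log2 difference) in each of 7 libraries (y axis, log scale), with 1 symbol per mouse and 1 point per library. For the 7 genes on the left all 5 LBR-null points lie below both WT points, while those of Slc22a5 lie just below the WT level and those of Slc22a4 near or above it.

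Among the basolateral uptake transporters for organic anions, Slc22a6 encodes OAT1, the classical transporter of para-aminohippurate. It was at 313 and 412 normalized counts in the libraries of mouse 4001, 552 in mouse 4002, 334 and 292 in mouse 4007, and 7297 and 7267 in the WT libraries. The LBR-null mice averaged 409 ± 126 (SD, n = 3), 17.8-fold below the WT value of 7282, and mouse 4002 alone was 13.2-fold below it. The LBR-null libraries lay between 292 and 552, with no overlap with the WT libraries, and mouse 4002 was the highest.

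Slc22a8 encodes OAT3, which carries larger anions such as sulfated steroids, antibiotics and diuretics. It was at 1665 and 1769 in mouse 4001, 3669 in mouse 4002, 2132 and 2209 in mouse 4007, and 12157 and 12109 in the WT mouse. The mean of 2519 ± 1021 (SD, n = 3) was 4.82-fold lower than WT. Mouse 4002 stood above the other LBR-null libraries and 3.31-fold below WT. This was the smallest difference of the 7 genes, at −2.34 on the log2 scale.

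Slc22a7 encodes OAT2, a carrier of cyclic nucleotides, creatinine and several drugs. It was at 21.8 and 9.76 in mouse 4001, 33.5 in mouse 4002, 4.66 and 4.56 in mouse 4007, and 785 and 810 in the WT mouse. The mean of 18.0 ± 14.6 (SD, n = 3) was 44.4-fold lower than WT. These levels rest on 30 reads in mouse 4001, 39 in mouse 4002 and 10 in mouse 4007, against 1892 in the WT mouse. All LBR-null libraries were far below WT, but they differed more among themselves than those of any other of the 9 genes.

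Further anion transporters were lower as well. Slc22a12 encodes URAT1, the apical exchanger that recovers urate. It was at 916 and 652 in mouse 4001, 2383 in mouse 4002, 1109 and 1178 in mouse 4007, and 13225 and 12531 in the WT mouse. The LBR-null mean of 1437 ± 839 (SD, n = 3) was 8.96-fold lower, with mouse 4002 at 18.5% of the WT value and mice 4001 and 4007 at 6.09% and 8.88%. Exons of Slc22a12 overlap exons of Nrxn2 in the gene models used here, the only such overlap among the 9 genes. Nrxn2 went the other way, at 604 ± 154 (SD, n = 3) in LBR-null mice against 319.6 in WT.

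Slc22a22 encodes OAT-PG, a prostaglandin carrier of the basolateral membrane of the proximal tubule. Its values were 13.8 and 10.6 in mouse 4001, 18.9 in mouse 4002, 21.4 and 19.1 in mouse 4007, and 535 and 566 in the WT mouse. The mean of 17.1 ± 4.32 (SD, n = 3) was 32.1-fold below WT. Slc22a22 was the one gene of the 7 in which mouse 4002 was not the highest LBR-null mouse.

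Slc22a28 belongs to a rodent cluster of organic anion transporter genes, and its substrates are poorly known. It was at 8.04 and 6.21 in mouse 4001, 12.0 in mouse 4002, 5.59 and 5.47 in mouse 4007, and 464 and 518 in the WT mouse. The mean of 8.23 ± 3.39 (SD, n = 3) was 59.7-fold lower than WT, on 12 to 14 reads per LBR-null mouse and 1162 in the WT mouse. Part of its transcript also occurs, in stretches of 100 bases, in transcripts of Slc22a27, Slc22a29 or Slc22a30, so reads can be split among these genes and the value of Slc22a28 alone is uncertain. The sum of Slc22a28 and Slc22a30, which are 98.8% identical in coding sequence, was 37.2 ± 21.7 (SD, n = 3) against 749 in WT, or 20.1-fold lower. With Slc22a27 and Slc22a29 added, the sum of these 4 genes was 808, 1757 and 619 in mice 4001, 4002 and 4007 and 2716 in WT, or 2.56-fold lower, so the fold depends on how reads were assigned among them.

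Slc22a2 encodes OCT2, the main basolateral uptake transporter for organic cations in the kidney. It was at 310 and 248 normalized counts in mouse 4001, 667 in mouse 4002, 124 and 110 in mouse 4007, and 4729 and 4770 in the WT mouse. The mean of 354 ± 283 (SD, n = 3) was 13.4-fold lower. The fold ranged from 7.12 in mouse 4002 to 40.6 in mouse 4007, so the LBR-null mice differed widely although no library came near WT.

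Of the carnitine and zwitterion transporters among the 9 genes, Slc22a5 was near the WT level in each LBR-null mouse and Slc22a4 in mice 4002 and 4007. Slc22a5 encodes OCTN2, the high-affinity carnitine transporter of the apical membrane. It was at 3341 and 3603 in mouse 4001, 2977 in mouse 4002, 3268 and 3045 in mouse 4007, and 3661 and 3707 in the WT mouse. All LBR-null libraries were lower, by little: the mean of 3202 ± 251 (SD, n = 3) was 86.9% of the WT value of 3684. Slc22a5 shares 13.7% of its 100-base stretches with Slc22a21, and their sum was 90.3% of WT.

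Slc22a4 encodes OCTN1, a transporter of ergothioneine. It was at 1113 and 1126 in mouse 4001, 622 in mouse 4002, 614 and 647 in mouse 4007, and 616 and 630 in the WT mouse. Mouse 4001 was at 179.8% of the WT value, and mice 4002 and 4007 were at 99.8% and 101% of it. The mean of 790.5 ± 285 (SD, n = 3) against 623 rests on mouse 4001: the log2 difference was 0.29 with it and 0.01 without it.

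Levels were compared between genes as normalized counts per kilobase of the longest transcript. In the WT mouse the order among the 9 genes was Slc22a12 (5819 per kilobase), Slc22a8 (3488), Slc22a2 (2246), Slc22a6 (1809), Slc22a5 (1203), Slc22a7 (397), Slc22a4 (275), Slc22a28 (245) and Slc22a22 (233). The WT libraries overlap between Slc22a28 and Slc22a22, at 231 and 259 against 226 and 239 per kilobase, so these neighbors are not separated. The others differ by more than the difference between the WT libraries. In LBR-null kidneys the order was Slc22a5 (1046 ± 81.9 per kilobase), Slc22a8 (724 ± 294), Slc22a12 (649 ± 379), Slc22a4 (349 ± 126), Slc22a2 (168 ± 134) and Slc22a6 (102 ± 31.3), each ± SD with n = 3 mice. Slc22a7 (8.96 ± 7.27), Slc22a22 (7.24 ± 1.82) and Slc22a28 (4.11 ± 1.69) followed. Values of single mice overlap between each gene and the next in this order, except between Slc22a6 (77.7 to 137 per kilobase) and Slc22a7 (2.30 to 16.7).

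Summed over the family by substrate class, the 13 organic anion transporter genes gave 14792 normalized counts per kilobase in the WT mouse. They gave 1513, 3744 and 1684 in mice 4001, 4002 and 4007. Their share of all SLC22 transcripts per kilobase was 52.0% in the WT mouse and 25.2% ± 9.77 (SD, n = 3) in LBR-null mice. The 4 carnitine transporter genes gave 1516 in the WT mouse and 1672, 1324 and 1401 in the LBR-null mice, so their share was 5.33% against 16.8% ± 3.50 (SD, n = 3). These sums contain the 9 genes and so follow from their choice in part.

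**Figure D2:**
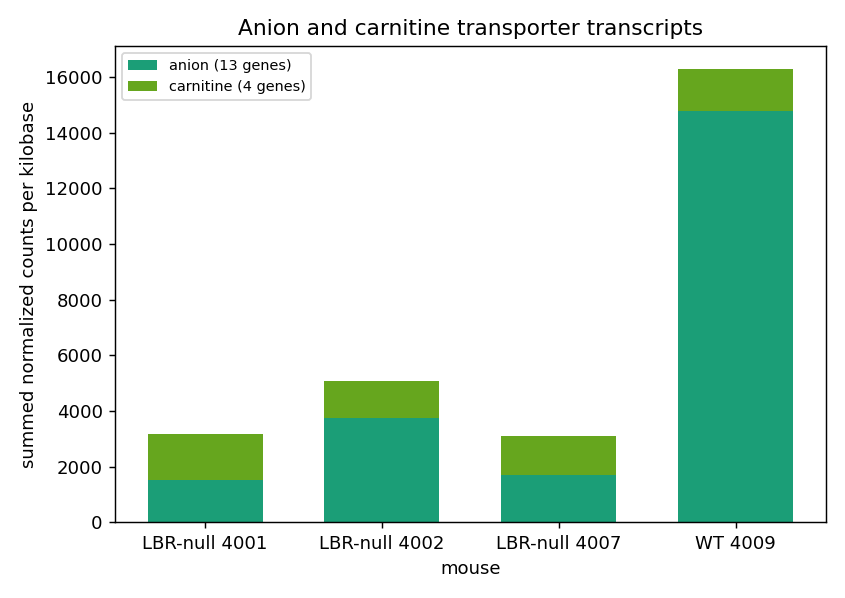
Summed normalized counts per kilobase of 17 SLC22 genes (y axis) in each mouse (x axis), stacked as anion and carnitine transporters, with libraries averaged within a mouse and no error bar because each bar is 1 mouse. The anion part is 14792 in the WT mouse and 1513 to 3744 in the LBR-null mice, while the carnitine part is between 1324 and 1672 in all 4.

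The LBR-null mice differed from each other more in some of these genes than in most genes. The highest LBR-null mouse was 7.28 times the lowest for Slc22a7, 5.70 times for Slc22a2 and 3.04 times for Slc22a12, but 1.17 times for Slc22a5. The SD over the 3 mice on the log2 scale was 1.32 for Slc22a7, 0.81 for Slc22a12 and 0.11 for Slc22a5, against a median of 0.28 over all genes tested. It exceeded that of 97.8% of genes for Slc22a2 and of 13.3% for Slc22a5. Mouse 4002 was the highest LBR-null mouse in 6 of the 7 lower genes, and mouse 4007 the lowest in 4 and mouse 4001 in 3. The difference between the 2 libraries of a mouse was at most 0.49 on the log2 scale for every gene and mouse except Slc22a7 in mouse 4001, where it was 1.08.

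In mouse 4002, whose Xist and Ddx3y levels are near those of the WT mouse, the 7 genes were also lower than in WT. The log2 differences were −5.24 for Slc22a28, −4.79 for Slc22a22, −4.53 for Slc22a7, −3.72 for Slc22a6, −2.83 for Slc22a2, −2.43 for Slc22a12 and −1.73 for Slc22a8. In the same mouse 7.21% of all genes tested were at least 2-fold lower. For mice 4001 and 4007 the sex-linked markers and the genotype cannot be told apart.

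In the mm9 gene models, most of these genes lie beside relatives. On chromosome 17, Slc22a2 (12777055 to 12821331, plus strand) lies 76.5 kb from Slc22a3, and Slc22a7 is far away (46569134 to 46575426). On chromosome 11, Slc22a5 (53678044 to 53705162), Slc22a21 and Slc22a4 (53796625 to 53841592) follow each other on the minus strand. On chromosome 19, Slc22a8 (8665744 to 8686324) and Slc22a6 (8692486 to 8702789) lie 6.16 kb apart on the plus strand. Slc22a28 (8136699 to 8206472, minus strand) lies in a row with Slc22a19, Slc22a26, Slc22a27, Slc22a29 and Slc22a30, and Slc22a12 (6535845 to 6543019) lies 1205 kb before this row. Slc22a22 is on chromosome 15 (57075322 to 57309180). The ratio of Slc22a8 to Slc22a6 normalized counts, for this close pair, was 5.48 to 8.03 in LBR-null mice and 1.93 in the WT mouse, so OAT1 transcripts were lower by more than OAT3 transcripts.

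In the row on chromosome 19 the log2 difference was −3.57 for Slc22a19, −1.19 for Slc22a27, −5.80 for Slc22a28, −1.09 for Slc22a29 and −3.28 for Slc22a30. Slc22a27, Slc22a28, Slc22a29 and Slc22a30 share stretches of sequence, so the differences between their values are uncertain. On chromosome 17 it was −4.08 for Slc22a2 and −0.75 for Slc22a3. Slc22a6 and Slc22a8 are 59.4% identical in coding sequence. Slc22a4, Slc22a6, Slc22a7, Slc22a8, Slc22a12 and Slc22a22 share no 100-base stretch with another SLC22 gene.

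The study classes genes by CpG islands at their starts. The 9 genes were chosen on the genotype difference, so nothing is read from how that difference falls with CpG among them. Within 500 bases of a start in mm9, Slc22a5 had 83 CpG pairs and Slc22a4 had 73, and the 7 lower genes had 6 to 30, against a median of 46 over 22372 coding genes. Of the tested SLC22 genes outside the 9, 5 had at least 46 pairs, and their log2 differences ran from −0.75 to 0.83. The 9 with fewer pairs ran from −3.57 to 1.05, and 5 of them were at least 2-fold lower with no overlap of libraries. Of the 14806 tested genes with a CpG count, 12.3% of 5015 below the median and 4.61% of 9791 at or above it were lower by this rule, and 18.6% and 5.58% were higher. By a loose island rule (GC content of 50% and observed to expected CpG above 0.6 in any short window near a start), Slc22a4, Slc22a5 and Slc22a12 had an island, as did 68.9% of coding genes.

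**Figure D3:**
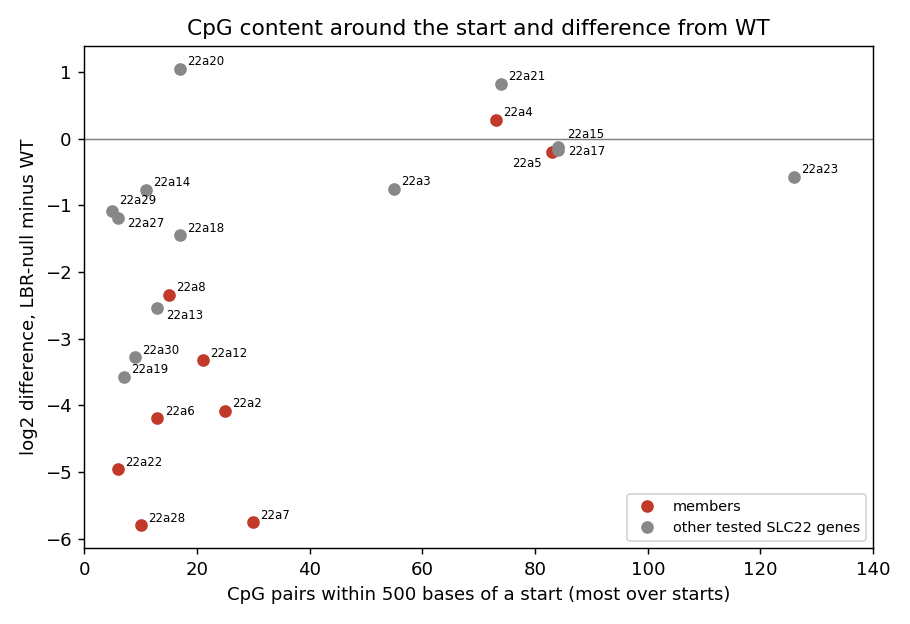
CpG pairs within 500 bases of a start (x axis, most over the starts of a gene) against the log2 difference between LBR-null and WT kidneys (y axis, mean of 3 mice) for 22 tested SLC22 genes, the 9 described genes in red. The grey points with at least 46 pairs lie between −0.75 and 0.83 and those with fewer pairs between −3.57 and 1.05, while the red points were chosen on the value of the y axis.

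The rest of the family was tested. The files list 17 other SLC22 symbols, and 15 passed the filter of 5 normalized counts. Under the limits used (2-fold, adjusted p of 0.05), limma called 0 of them, as it called 0 of 17283 genes. At an unadjusted p under 0.05 it had 5 lower and 0 higher, where 8.05% of all genes were lower and 10.7% were higher. edgeR called 0 of the 15, where it called 0.156% of all genes lower and 0.00579% higher. DESeq2 on the recovered reads called 4 lower (Slc22a13, Slc22a18, Slc22a19 and Slc22a30) and 0 higher, where it called 3.33% of all genes lower and 3.08% higher. The same 2-fold rule with no overlap of libraries held for 5 lower genes and 1 higher gene of the 15, where 6.81% of all genes tested were lower and 11.7% higher. The number higher is near that share.

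Slc22a19, the gene of OAT5, was at 142 and 127 in mouse 4001, 218 in mouse 4002, 55.9 and 42.8 in mouse 4007, and 1392 and 1323 in the WT mouse (log2 difference −3.57, standard error 0.76, adjusted p = 0.107 from limma). Slc22a30 of the same cluster was at 29.0 ± 18.3 (SD, n = 3) against 258 in WT (−3.28, adjusted p = 0.107 from limma), with the reservation on shared reads given for Slc22a28. Slc22a13, the gene of OAT10, a urate and nicotinate exchanger, was at 309.9 and 314 in mice 4001 and 4007, 1209.7 in mouse 4002 and 2865 in the WT mouse (−2.54, adjusted p = 0.157 from limma).

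Slc22a18, an imprinted gene with the highest SLC22 level per kilobase in both genotypes, was at 3785 ± 597 (SD, n = 3) against 10228 in WT (−1.45, standard error 0.29, adjusted p = 0.102 from limma). Slc22a27 was at 70.8 ± 8.65 (SD, n = 3) against 162 in WT (−1.19, adjusted p = 0.159 from limma), with the same reservation on shared reads. On the higher side, Slc22a21, the gene of OCTN3, was at 146, 265 and 305 in mice 4001, 4002 and 4007 and 128 in WT (0.83, adjusted p = 0.392 from limma, and 1.14 with an adjusted p of 0.0469 without mouse 4001), and Slc22a20, the gene of OAT6, at 13.0 ± 3.25 against 5.65 (1.05, adjusted p = 0.379 from limma). Slc22a3, Slc22a14, Slc22a15, Slc22a17, Slc22a23, Slc22a29 and the pseudogene Slc22a13b-ps had log2 differences from −1.09 to −0.12 and adjusted p-values of at least 0.373. In Slc22a29 mouse 4002 was nearest to WT, at −0.16, against −1.35 and −1.75 in mice 4001 and 4007. Without mouse 4002 its difference from limma was −1.55, with the same reservation on shared reads. Slc22a16 and Slc22a26 had too few reads to be tested.

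**Figure D4:**
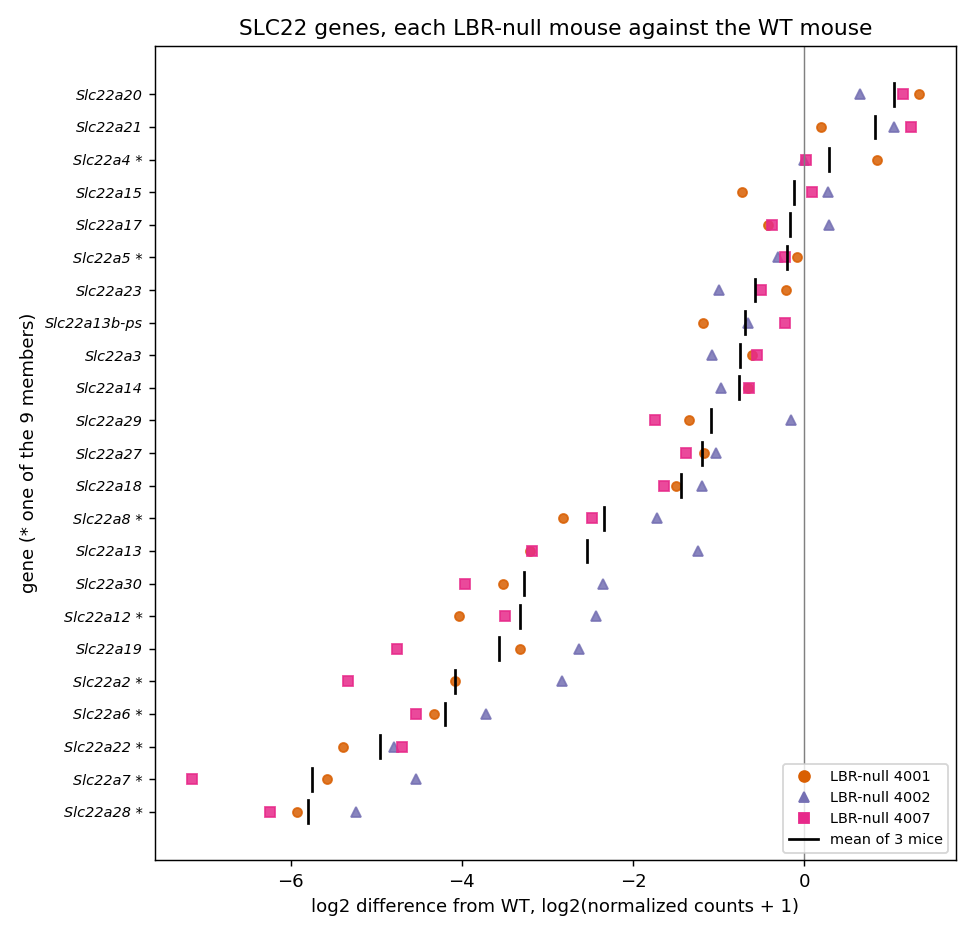
Log2 difference from WT (x axis, log2(normalized counts + 1)) of 23 SLC22 genes (y axis, asterisks mark the 9 described genes), with 1 symbol per LBR-null mouse and a bar for the mean of the 3 mice. In each of the 7 lower genes all 3 mice lie at or below −1.73, and mouse 4002 lies nearest to 0 in 6 of them.

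Transport partners are the carriers that supply the exchange gradients of these transporters, export their substrates or anchor them. Of 26 such genes, limma called 0, with 9 lower and 3 higher at an unadjusted p under 0.05, where 8.05% and 10.7% of all genes were. The number higher is near that share. edgeR called 2 lower and 0 higher (0.156% and 0.00579% of all genes), and DESeq2 called 6 lower and 2 higher (3.33% and 3.08% of all genes). The median log2 difference of the list was −0.72.

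Among suppliers of the counter-ions, Slc13a3 (NaDC3), which loads the cell with the dicarboxylates that OAT1 and OAT3 exchange, was at 2405 ± 878 (SD, n = 3) against 10847 in WT (−2.24, standard error 0.43, adjusted p = 0.0990 from limma). Slc13a2 (NaDC1), the apical dicarboxylate carrier, was higher in every LBR-null library, at 1567 ± 14.3 (SD, n = 3) against 939.6 in WT (0.74, adjusted p = 0.158 from limma). Slc5a12, a sodium-coupled lactate transporter whose substrate URAT1 exchanges for urate, was higher in every LBR-null library, at 11677 ± 3408 against 4579.7 (1.30, adjusted p = 0.171 from limma). Slc5a8, its high-affinity relative, was at 1509 ± 685 against 2731 (−0.98, adjusted p = 0.396 from limma).

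Among the exporters, Slc17a3 (NPT4), an apical anion and urate exporter, was at 232 ± 56.0 (SD, n = 3) against 2643 in WT (−3.53, standard error 0.35, adjusted p = 0.0584 from limma). Slc51a, a subunit of the basolateral organic solute transporter, was at 30.5 ± 9.45 against 881 (−4.85, adjusted p = 0.0584 from limma), and its partner subunit Slc51b at 203 ± 83.7 against 562 (−1.54, adjusted p = 0.148 from limma). These values of Slc17a3 and Slc51a were called lower by edgeR (adjusted p = 0.0335 for each). Slc47a1 (MATE1), the apical exporter of cations that enter through OCT2, was at 4667 ± 1604 against 8815 (−0.97, adjusted p = 0.273 from limma). The pumps Abcc2 and Abcc4, which export conjugates, had log2 differences of 0.26 and −0.28, and Abcg2, an exporter of urate, −0.73.

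Slc2a9 (GLUT9), the basolateral urate carrier that works in series with URAT1, was opposite to Slc22a12. It was at 1885, 858 and 1774 in mice 4001, 4002 and 4007 and 491 in WT (1.53, standard error 0.47, adjusted p = 0.159 from limma). The ratio of Slc2a9 to Slc22a12 normalized counts was 1.48, 0.221 and 0.953 in mice 4001, 4002 and 4007 and 0.0234 in the WT mouse. Pdzk1, the scaffold that binds URAT1 and other apical transporters, was at 7489 ± 1972 (SD, n = 3) against 28699.7 in WT (−1.98, adjusted p = 0.103 from limma).

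Of 15 regulators known to act on SLC22 genes or on the proximal tubule, limma called 0, with 2 lower and 2 higher at an unadjusted p under 0.05, numbers near the shares of all genes (8.05% and 10.7%). edgeR called 0, and DESeq2 called 2 lower and 1 higher, against 3.33% and 3.08% of all genes. Hnf4a, a transcription factor that drives OAT1 and OAT3, was at 9512 ± 2691 (SD, n = 3) against 11809.6 (−0.35, adjusted p = 0.685 from limma). Nr1i3, the xenobiotic receptor CAR, was at 215, 283 and 472 in mice 4001, 4002 and 4007 and 18.2 in WT (4.00, standard error 0.48, adjusted p = 0.0695 from limma). Ppara, a receptor for fatty acids, was at 3562 ± 1244 against 1397 (1.28, adjusted p = 0.186 from limma).

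Among regulators tied to hormones and sex, Esr1, the estrogen receptor, was at 136 ± 16.5 (SD, n = 3) against 577 in WT, with mouse 4002 at 153 (−2.08, adjusted p = 0.0843 from limma). Prlr, the prolactin receptor, was at 1902, 2958 and 1207 in mice 4001, 4002 and 4007 and 9157 in WT (−2.27, adjusted p = 0.107 from limma). Bcl6, a repressor with a part in sex-dependent expression in liver, was at 209, 651 and 370 in mice 4001, 4002 and 4007 and 769.6 in the WT mouse (−1.06, adjusted p = 0.388 from limma).

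**Figure D5:**
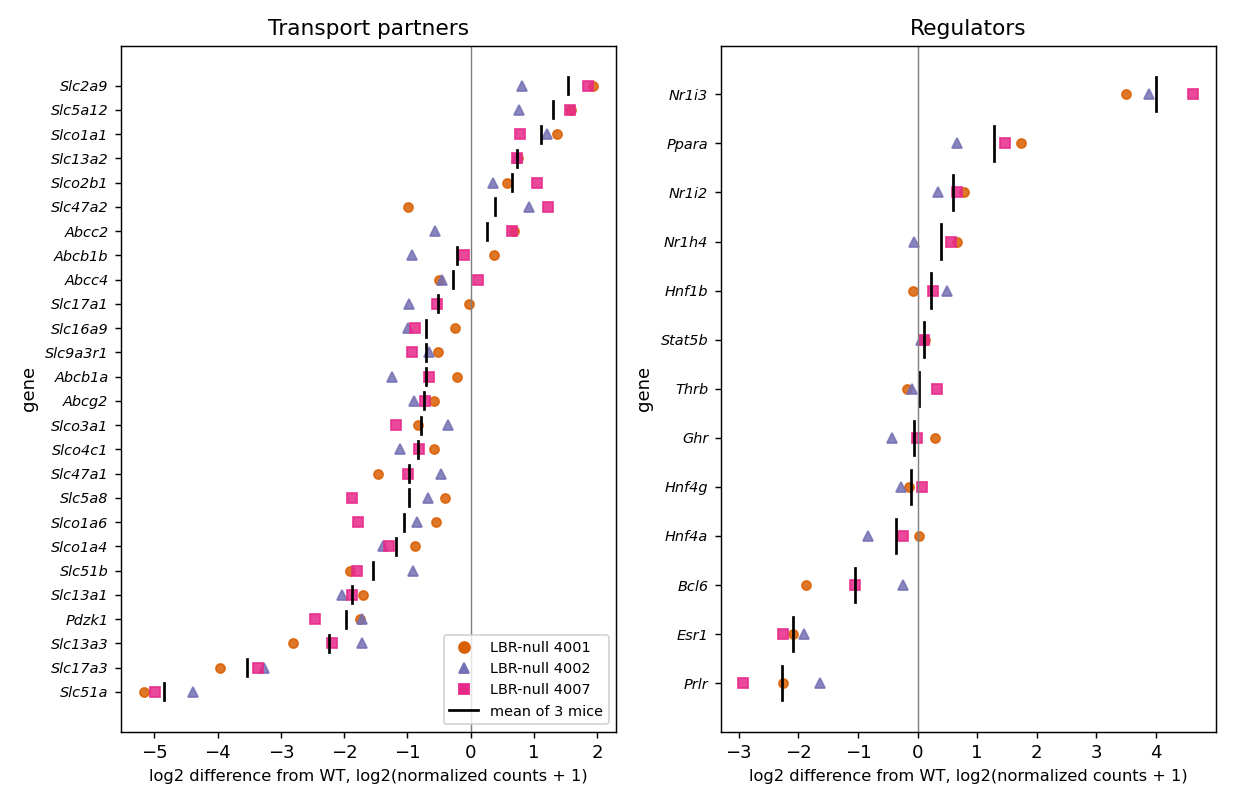
Log2 difference from WT (x axes, log2(normalized counts + 1)) of 26 transport partners (left) and 13 regulators (right), with 1 symbol per LBR-null mouse and a bar for the mean of the 3 mice. Slc51a (−4.85) and Slc17a3 (−3.53) lie farthest below 0 and Nr1i3 (4.00) farthest above.

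The cells that use these transporters are those of the proximal tubule, and their markers were measured in the same libraries. Of 20 proximal tubule markers, 11 were at least 2-fold lower and 2 at least 2-fold higher with no overlap of libraries, where 6.81% and 11.7% of all genes were. The number higher is near that share. The median log2 difference was −1.11. limma called 0 of 20, with 11 lower and 0 higher at an unadjusted p under 0.05 (8.05% and 10.7% of all genes). edgeR called 1 lower and 0 higher (0.156% and 0.00579%), and DESeq2 called 8 lower and 1 higher (3.33% and 3.08%). The lower markers included Miox (−4.18), Gatm (−3.02) and Acsm2 (−2.92). The apical phosphate carrier Slc34a1 was at −1.67 and the endocytic receptor Lrp2 at −1.59. Markers on the other side included the amino acid carrier Slc6a19 (2.13), Pck1 (1.59) and the water channel Aqp1 (0.65), each above both WT libraries in all LBR-null libraries. The value of Slc6a19 rests on mice 4001 and 4007 (3.12 and 2.79), while mouse 4002 was at 0.48. The summed level of the list was 256287 to 470040.3 in LBR-null libraries and 656914 and 675480 in the WT libraries, but Kap and Pck1 made up 58.8% to 73.9% of it in each library. The other 18 markers summed to 96899 to 137506 in LBR-null libraries and to 270696 and 269171 in the WT libraries. The part of these cells in the lower SLC22 values was not tested. Of the 7 lower SLC22 genes, 6 lay below −3 on the log2 scale and Slc22a8 above it, and the markers Miox and Gatm also lay below −3. The SLC22 genes were chosen on this difference, so nothing is read from setting them beside the markers.

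Of other cell types, the 7 tested of 8 neutrophil genes had a median log2 difference of 3.31, with a summed level of 379 to 2459 in LBR-null libraries against 75.1 and 82.7 in the WT libraries. Elane and Mpo, which define the granules of their precursors, are near the level of single reads. Elane was at 0 and 7.10 in mouse 4001, 2.58 in mouse 4002, 10.2 and 11.8 in mouse 4007 and 1.30 in WT, and Mpo was at 5.85, 4.30 and 13.3 in the 3 mice against 0.394. Markers of the collecting duct (median 0.24), the endothelium (0.01), macrophages (−0.64), podocytes (−0.68) and the thick ascending limb and distal tubule (−0.49) had smaller medians, and the 5 tested tubule injury genes had −0.90. Of these, 2 were at least 2-fold lower and 1 at least 2-fold higher with no overlap of libraries, where 6.81% and 11.7% of all genes were. The higher gene was Lcn2, lipocalin 2, at 684, 293 and 564 in mice 4001, 4002 and 4007 and 227 in WT. Liver genes had a median of 1.42 and a summed level of 9414 to 25725 against 6076 and 6251. By mouse the liver median was 2.48, 0.52 and 1.10 in mice 4001, 4002 and 4007, and the podocyte median −1.53, −0.30 and −0.21. Mouse 4001 was the farthest from WT in both lists. The part of these cell types in the SLC22 values was not tested.

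The distance between centered log2 values over the 4 mice was computed against 14637 genes. The nearest 5 outside the 9 are described, with no inference on shared control. With 1 WT mouse among the 4, this distance largely reflects the genotype difference, on which the 9 genes were chosen. Near genes are therefore mainly those with a similar difference, and nearness is no separate result. Nearest to Slc22a28 was Dio1, the deiodinase that activates thyroid hormone, at a root mean square distance of 0.35, followed by Slc51a (0.45). Dio1 was at 75.6, 170 and 55.0 normalized counts in mice 4001, 4002 and 4007 and 3299 in the WT mouse. It was also nearest to Slc22a7 (0.50), with Slc7a12, an amino acid carrier, among the 5 (0.63). Nat8 and Dleu7 stood in the lists of both. Nearest to Slc22a22 were Akr1c21, a steroid dehydrogenase (0.23), and Slc51a (0.26), with Ugt2b38, a glucuronidating enzyme (0.33), and Hsd3b2 (0.51). Ugt2b38 and Hsd3b2 also reached the mean of 20 only through the WT mouse, with LBR-null means of 9.59 and 19.8 against 209 and 477. Among the 9 genes themselves the closest pairs were Slc22a4 and Slc22a5 (0.34) and Slc22a8 and Slc22a12 (0.46). These distances also contain the genotype difference on which the genes were chosen, so nothing is read from them.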

How the data were processed

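Kidney RNA-seq of 3 LBR-null mice and 1 WT littermate was used, 7 libraries in all, grouped by the genotype in the labels. Per the submitters' processing notes and the paper's methods, the authors aligned the reads to mm9 with STAR 2.6.0 and divided read counts by DESeq2 1.25.1 size factors. The deposited signal is this normalized count per gene symbol. The counting program, its annotation, whether it used strand, and whether libraries of 1 mouse share an aliquot are not given in the sources used here. All values were whole multiples of 1 read within 0.01 read (100% of values), so reads were recovered by division. Libraries held 20694016 to 26333284 reads on genes. Counting intervals were not computed, and for genes with few reads (Slc22a7 and Slc22a28) counting error adds to the spread between mice.

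Libraries were averaged within a mouse, the replicate. The genotype difference of the 9 genes is described on log2(normalized counts + 1), with no test. For other genes, limma 3.58.1 (R 4.3.3, eBayes with a trend) was fitted to mouse means of the 17283 genes that averaged 5 or more normalized counts. Calls needed a 2-fold change and a Benjamini-Hochberg adjusted p of 0.05. With 1 WT mouse, the fit takes its variance from the LBR-null mice. edgeR 4.0.16 (its quasi-likelihood fit) and DESeq2 1.42.0 on recovered reads summed per mouse were alternatives, and the fits were tested on simulated data. Gene positions, CpG counts and coding sequences come from mm9 gene models (GENCODE), and promoters from RefSeq (GRCm38.p6). A planned comparison of proteins was replaced by coding sequence identity, as no protein table was used here. Genes named are the 9, the other symbols starting with Slc22a, fixed lists of transport partners, regulators and cell type markers, and for Slc22a28, Slc22a7 and Slc22a22 the 5 nearest profiles among genes with a mean of at least 20. Single values of 3 genes of these lists are not reported here. The members, lists and tests were chosen with earlier results of these data known.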

Additional observations from a re-analysis of the deposited data

Results flagged for a closer look

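For 24 SLC22 genes, the 5 LBR-null libraries were examined for a highest or lowest library whose gap to the others was large against their range. The rate of about 1 in 20 that chance gives for independent samples does not apply here, because mice 4001 and 4007 each contribute 2 similar libraries. Mouse 4002 has the only library without a partner, so nothing is read from which library stands apart. In 5 genes, 1 of them among the 9 described, that library stood apart, on the high side. Slc22a8 was at 3669 normalized counts there and between 1665 and 2209 in the other 4 libraries. Slc22a13 was at 1209.7 and between 309.7 and 316 in the others. Slc22a29 was at 1616 and between 534 and 737. Slc22a30 was at 49.9 and between 11.2 and 21.8. Slc22a17, which encodes a receptor for lipocalin 2, was at 1276 and between 745 and 863. Mouse 4002 is the LBR-null mouse whose Xist and Ddx3y levels are near those of the WT mouse, and it has 1 library, so the animal, the library and the sex-linked markers cannot be told apart.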

How the results depend on the processing

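The log2 differences of the 9 genes were recomputed under 11 alternatives, 99 values in all. Of these, 93 moved by less than the SD over mice. Leaving out 1 of the 3 mice cannot move a mean by that SD, so for those alternatives the outcome was fixed in advance. Taking 1 WT library could move a value only a little, as the WT libraries were close. The 7 lower genes kept their direction in all alternatives, and the smallest difference was 1.73 in size. In these genes every LBR-null library lay below both WT libraries. Leaving out mice or libraries or changing the pseudocount could therefore not reverse the direction, and nothing is read from it. The median over the 9 genes lay between −4.43 and −3.46 when 1 LBR-null mouse was left out and was −2.83 with mouse 4002 alone as the LBR-null value, an alternative chosen after seeing the data. With a pseudocount of 5, Slc22a28 moved to −5.26.

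limma called 0 genes with all 3 LBR-null mice, and also under the other pseudocounts, filters and scalings. Leaving out 1 LBR-null mouse gave 0 to 1037 calls over all genes (1037 without mouse 4001, 716 without mouse 4002, 0 without mouse 4007), 0 to 5 among the other SLC22 genes, 0 to 7 among the transport partners, 0 to 4 among the regulators and 0 to 9 among the proximal tubule markers. edgeR called 28 genes, 2 of the transport partners and 1 of the proximal tubule markers. DESeq2 called 1109 genes, 4 of the other SLC22 genes, 8 of the transport partners, 3 of the regulators and 9 of the proximal tubule markers. The cause of these differences in calls was not tested. Slc22a18, Slc22a19 and Slc22a30 were called lower by DESeq2. Their log2 differences from limma were −1.42, −3.69 and −3.15 without mouse 4001, and −1.57, −4.04 and −3.74 without mouse 4002. Without mouse 4002, the LBR-null mice left (4001 and 4007) differ from the WT mouse in Xist and Y-linked genes. Genotype and these markers cannot be told apart in that setting.

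Of 76 named genes outside the 9, 7 changed sign in some setting, with an adjusted p of 0.193 or more under every one. Thrb was at −0.011 with TMM. Slc2a2 was at 0.19 with edgeR and 0.20 with DESeq2. Without 1 mouse, Slc22a15 ran from −0.32 to 0.18, Slc47a2 from −0.033 to 1.07, Abcb1b from −0.52 to 0.14, Ghr from −0.23 to 0.14, Thrb from −0.13 to 0.12, Slc2a2 from −0.55 to 0.46 and Slc4a4 from −0.29 to 0.52. No paired analysis was possible because the library numbers count libraries within a mouse and the mice of the 2 genotypes share none. Slc22a7 rests on 10 to 39 reads and Slc22a28 on 12 to 14 reads per LBR-null mouse, which limits their folds.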
